A study of Mus musculus with 4 samples.

Results

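Interferon regulatory factors (IRFs) and signal transducers and activators of transcription (STATs) were examined in the quadriceps, a thigh muscle, of mice that carry transgenes for both NF90 and NF45. The genes were chosen by symbol: Irf1, Irf3, Irf5, Irf7, Irf8 and Irf9, Stat2 and Stat3, and Socs1, an inhibitor of the same pathway. The choice was made with earlier results of these data known, so shares set beside those of all tested genes are description only. Of these 9 genes, 8 had an array row annotated to them alone, out of 22180 genes with such a row. The symbol Irf5 stood only on a row shared with another gene, so no value is given for it. Irf8 had 2 rows and the other 7 genes had 1 row each. A gene with several rows was represented by the brightest one.

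Total RNA was measured on whole-transcript arrays, 1 array per mouse, in 2 wild-type (WT) mice and 2 NF90-NF45 double transgenic (dbTg) mice. Replicate 1 was male and replicate 2 female in each group. Age was 16 weeks, except for WT replicate 1 at 17 to 18 weeks. No treatment is labelled. The promoter that drives the transgenes and the strain were not given in the sources used here. With 2 arrays a group, their number limits the precision of every value, and a permutation test cannot go below p = 0.333.

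IRFs are transcription factors that share a DNA-binding domain and act early in antiviral and inflammatory responses. IRF3 and IRF7 are switched on by sensors of foreign RNA and DNA and turn on type I interferon genes. Interferon bound to its receptor activates Janus kinases, which phosphorylate STAT proteins. STAT2 and IRF9 act in ISGF3, a complex that binds the interferon-stimulated response element (ISRE), while STAT dimers bind the gamma-activated sequence (GAS). STAT3 serves cytokines such as interleukin-6 and has been studied in muscle wasting and repair, and SOCS1 blocks the Janus kinases. NF90 and NF45 form a complex that binds double-stranded RNA.

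Values are on a log2 scale, on which a step of 1 is a doubling. Across the arrays the median of all 41345 rows was 1.55 to 1.60, and no call of presence accompanied the values. A gene was tested where its mean over the 4 arrays was at least 1.48, the 40th percentile of all genes, which kept 13308 genes. The median of these tested genes was 2.87 and 2.85 in WT and higher in dbTg, at 3.12 and 3.10. The upper quartile of all rows was 2.80 and 2.78 in WT and 2.99 and 2.98 in dbTg. Median centring of the arrays, used below as an alternative, sets the medians of the tested genes equal. Ilf2, which encodes NF45, read 5.03 and 5.04 in WT and 10.36 and 10.16 in dbTg. Summed on the linear scale, 12 skeletal muscle markers reached 15388 and 16210 in WT and 16370 and 15387 in dbTg. The brightest of them, Myh4, a fast myosin, read 11.04 to 11.15 on every array, so the markers of the labelled tissue were present throughout.

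Irf9 rose in dbTg muscle with the settings reported here. It was not called without the intensity filter (limma adjusted p = 0.0583), after median centring (0.0800) or after quantile normalization (0.0783). Irf8 also passed the threshold, but it entered the test only through its dbTg arrays. Like Irf9, it was not called without the intensity filter (adjusted p = 0.0574). Irf7, Stat2, Stat3 and Irf1 read higher on both dbTg arrays without passing the threshold, and Irf3 and Socs1 overlapped between the groups. In limma, with Benjamini-Hochberg adjustment over all tested genes, 2 of the 8 genes were called higher, where 2.01% of all tested genes were. None of the 8 was called lower in limma, and none was lower at an unadjusted p under 0.05. Over all tested genes 0.203% were called lower and 4.64% were lower at an unadjusted p under 0.05. At an unadjusted p under 0.05, 5 of the 8 were higher, against 14% of all tested genes. Both dbTg arrays lay above both WT arrays for 6 of the 8 genes, against 33.7% of tested genes, and below them for 0 of the 8, against 16.3%. The groups of Irf1 overlapped after median centring or quantile normalization of the arrays, which left 5 of the 8 genes with dbTg above WT. Over all tested genes 267 were called higher and 27 lower, and 124 and 65 after median centring. Without either WT array more of the 8 genes were called, and without either dbTg array none was. Calls over all tested genes moved the same way, and few were left without either dbTg array. Each of these fits leaves 1 array in a group.

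**Figure D1:**
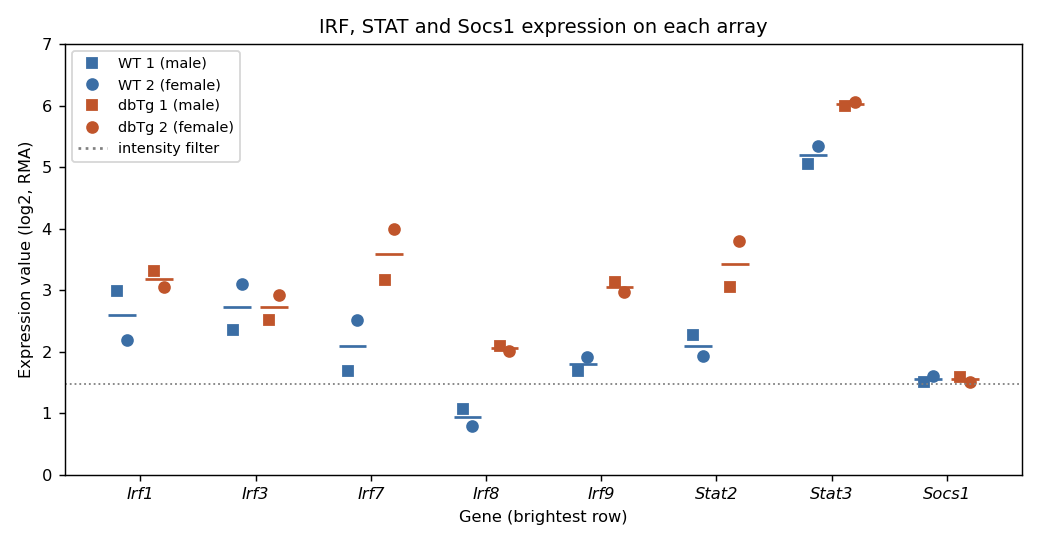
Expression value (log2, RMA) of the brightest row of each gene on each array; squares are the males (replicate 1), circles the females (replicate 2), horizontal bars the group means of 2 arrays, and the dotted line the intensity filter at 1.48. Both dbTg arrays sit above both WT arrays for 6 genes, while the groups of Irf3 and Socs1 overlap; heights of different genes come from different probes and are not comparable.

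The DNA just upstream of the genes differs in the motifs it holds, and it is shown for the called genes Irf8 and Irf9 and for those with a match. RefSeq promoter windows of GRCm38.p6, 250 bases before to 50 after an annotated start, were searched for the ISRE core (GAAA, any 2 bases, then GAAA) on both strands and for the GAS letters TTCNNNGAA, which read the same on both strands. The 9 genes have 12 windows. An ISRE core match lay in 2 of them, those of Stat2 and Socs1, against 3.44% of all 32851 windows. A GAS match lay in 2 others, of Irf1 and Irf8, against 8.3% of all windows. No match to either motif lay in the windows of Irf3, Irf5, Irf7, Irf9 and Stat3, which says only that these letters are not in these windows. Below, bases before the start are printed 5′ to 3′ on the strand of the gene, with motif matches in capitals. For Stat2, whose upstream window runs through the gene Apof, only 30 bases around the match are given.
Irf1 (chr11:53769764-53770013, plus strand): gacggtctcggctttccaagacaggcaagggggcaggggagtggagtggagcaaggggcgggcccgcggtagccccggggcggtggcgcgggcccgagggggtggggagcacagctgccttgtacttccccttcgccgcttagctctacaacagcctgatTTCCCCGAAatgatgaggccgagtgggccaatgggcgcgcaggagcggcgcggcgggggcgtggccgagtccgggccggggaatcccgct
Irf8 (chr8:120736108-120736357, plus strand): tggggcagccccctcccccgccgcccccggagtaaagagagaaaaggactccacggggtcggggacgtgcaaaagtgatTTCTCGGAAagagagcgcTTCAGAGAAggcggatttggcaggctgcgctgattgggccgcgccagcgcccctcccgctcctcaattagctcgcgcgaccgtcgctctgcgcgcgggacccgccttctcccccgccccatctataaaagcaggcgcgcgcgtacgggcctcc
Irf9 (chr14:55603735-55603984, plus strand): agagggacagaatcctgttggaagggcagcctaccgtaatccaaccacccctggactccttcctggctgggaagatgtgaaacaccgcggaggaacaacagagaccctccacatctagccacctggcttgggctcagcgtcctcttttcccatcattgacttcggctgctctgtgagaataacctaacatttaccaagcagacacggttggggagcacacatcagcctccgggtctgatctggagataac
Socs1 (chr16:10785537-10785786, minus strand): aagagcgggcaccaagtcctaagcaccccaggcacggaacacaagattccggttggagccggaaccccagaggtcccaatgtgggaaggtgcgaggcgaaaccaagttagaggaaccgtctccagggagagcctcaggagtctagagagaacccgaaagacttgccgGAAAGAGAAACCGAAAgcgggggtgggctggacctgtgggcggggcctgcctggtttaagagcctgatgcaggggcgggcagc
Stat2 (chr10:128270266-128270295, plus strand): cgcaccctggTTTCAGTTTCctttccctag

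In Irf1 the GAS match TTCCCCGAA starts 90 bases before the start. Irf8 holds TTCTCGGAA 171 bases and TTCAGAGAA 153 bases before its start. In Socs1 the matches GAAAGAGAAA and GAAACCGAAA begin 83 and 77 bases before the start and overlap each other. The Stat2 match reads TTTCAGTTTC on the strand of the gene, which is GAAACTGAAA on the other strand, and begins 222 bases before the start. The matches fell in genes with different values. Of the 4 genes with a match, Irf8 was called, Stat2 and Irf1 read higher without a call, and Socs1 did not differ beyond its spread. The called gene Irf9 had no match in its windows. Among listed targets of ISGF3 with a window, 9 of 17 genes (52.9%) held an ISRE core match, as did 9 of 17 listed targets of interferon gamma and IRF1 and 0 of 13 listed targets of STAT3, against 3.99% of all genes with a window. The targets were listed as genes known to respond, so these shares only describe the lists.

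**Figure D2:**
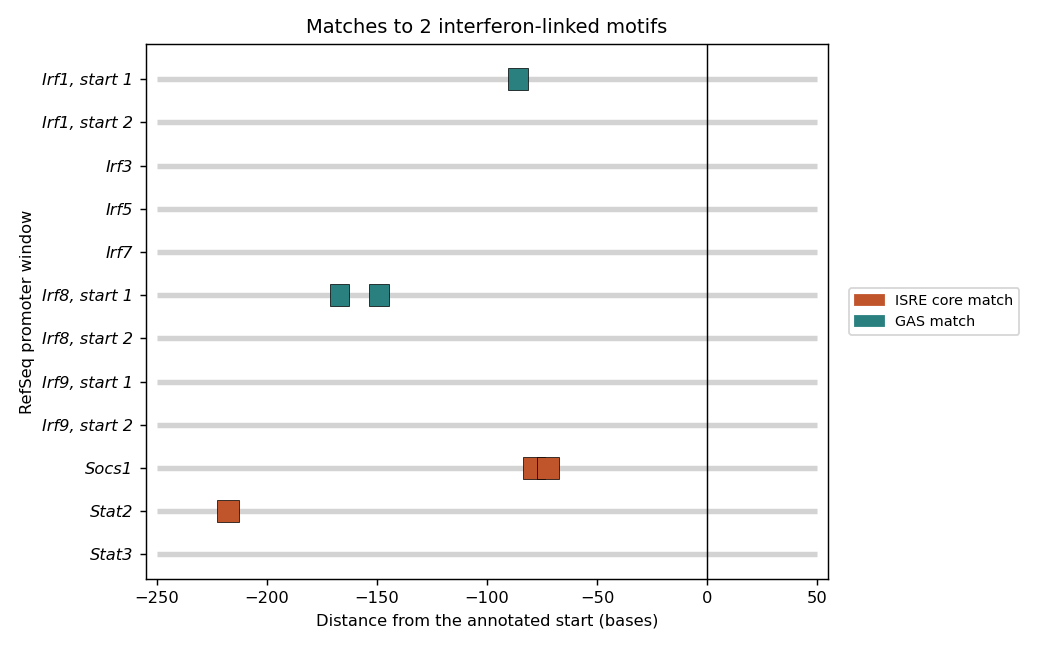
Positions of ISRE core matches (orange) and GAS matches (teal) in the 12 RefSeq promoter windows of the 9 genes, as distance in bases from the annotated start at 0. Socs1 and Stat2 hold ISRE core matches, Irf1 and Irf8 hold GAS matches at their first start, and the other 8 windows hold neither.

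Irf9, the DNA-binding subunit of ISGF3, read 1.68 and 1.92 in the WT arrays and 3.13 and 2.97 in the dbTg arrays. The groups were far apart compared with the spread inside them, with a gap of 1.05 between the highest WT and the lowest dbTg value. The mean went from 1.80 ± 0.17 (SD, n = 2) to 3.05 ± 0.12 (SD, n = 2), a 2.38-fold rise (log2 difference 1.25, SE 0.22, limma adjusted p = 0.0437). Leaving out 1 array moved the difference between 1.13 and 1.37. The call ended without dbTg replicate 1 (adjusted p = 0.264) or dbTg replicate 2 (0.309), after median centring (0.0800) or quantile normalization (0.0783), and without an intensity filter (0.0583), while both dbTg arrays stayed above both WT arrays after either scaling.

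Stat2, the STAT subunit that IRF9 binds, read 2.26 and 1.94 in WT and 3.06 and 3.80 in dbTg. The female dbTg array was the highest of the 4, 0.74 above the male one. Its difference was 1.33 (SE 0.30, adjusted p = 0.0809), a 2.51-fold difference that missed the threshold. The difference was 0.96 without dbTg replicate 2 and 1.70 without dbTg replicate 1. Without WT replicate 1, the older mouse, the difference was 1.49 and passed it (adjusted p = 0.0402).

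Irf8 encodes a factor that directs the development of macrophages and dendritic cells. Its brightest row read 1.07 and 0.80 in WT and 2.09 and 2.02 in dbTg. Both dbTg values lay close together and clear of both WT values. The mean went from 0.93 ± 0.19 to 2.05 ± 0.053 (SD, n = 2 each), a 2.18-fold difference (log2 difference 1.12, SE 0.18, adjusted p = 0.0391). The WT mean was under the intensity filter. The gene passed the filter only through its dbTg arrays, so a difference was built into its being tested, and the p-value is given as a description. A second, dimmer row of Irf8 read 1.34 and 1.17 in WT and 1.30 and 1.49 in dbTg, with overlapping groups, a difference of 0.14 and no test, as it was under the filter. The rows of this gene disagreed. The call of the brighter row ended without dbTg replicate 1 (adjusted p = 0.214) or dbTg replicate 2 (0.264), after median centring (0.0758) or quantile normalization (0.0523) and without a filter (0.0574).

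Irf7, the factor that amplifies type I interferon production, had the largest difference of the 8 genes. It read 1.69 and 2.51 in WT and 3.17 and 4.0005 in dbTg. In each group the female array was higher than the male one, by 0.82 in WT and 0.83 in dbTg, and the groups did not overlap. The difference was 1.49 (SE 0.38, adjusted p = 0.102), or 2.80-fold. It was nearly the same in the male pair (1.48) and in the female pair (1.49). The difference was 1.90 without WT replicate 2, and passed the threshold there (adjusted p = 0.0215), and 1.08 without WT replicate 1.

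Irf3, which encodes a constitutively made relative of IRF7, read 2.35 and 3.10 in WT and 2.52 and 2.92 in dbTg. The dbTg values lay inside the range of the WT values. The difference was -0.0083 with a 95% interval from -0.75 to 0.73 (adjusted p = 0.994), which leaves room for changes of either sign.

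Irf1, which is induced by interferon gamma and turns on antigen presentation genes, read 2.99 and 2.19 in WT and 3.30 and 3.05 in dbTg. The male WT array lay only 0.060 below the lower dbTg array. The difference was 0.59 (95% interval -0.15 to 1.32, adjusted p = 0.367), within what the spread of these arrays allows. Leaving out WT replicate 1 gave 0.99 and leaving out WT replicate 2 gave 0.18, a shift of more than 1.5 times either way.

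Stat3 read 5.05 and 5.35 in WT and 5.9996 and 6.05 in dbTg. The dbTg arrays were almost equal and 0.65 above the higher WT array. The difference was 0.83 (SE 0.18, adjusted p = 0.0748), or 1.78-fold. It missed the threshold with all arrays and passed it without WT replicate 2 (difference 0.98, adjusted p = 0.0284).

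Socs1, the feedback inhibitor, read 1.504 and 1.60 in WT and 1.59 and 1.51 in dbTg. All 4 values lay within a narrow band just above the intensity filter. The difference of the means, 1.554 in WT and 1.552 in dbTg, had a 95% interval from -0.41 to 0.41 (adjusted p = 0.999). A doubling of the array value lies outside that interval. The values are low, where the processing compresses differences, so a doubling of the transcript itself is not excluded.

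**Figure D3:**
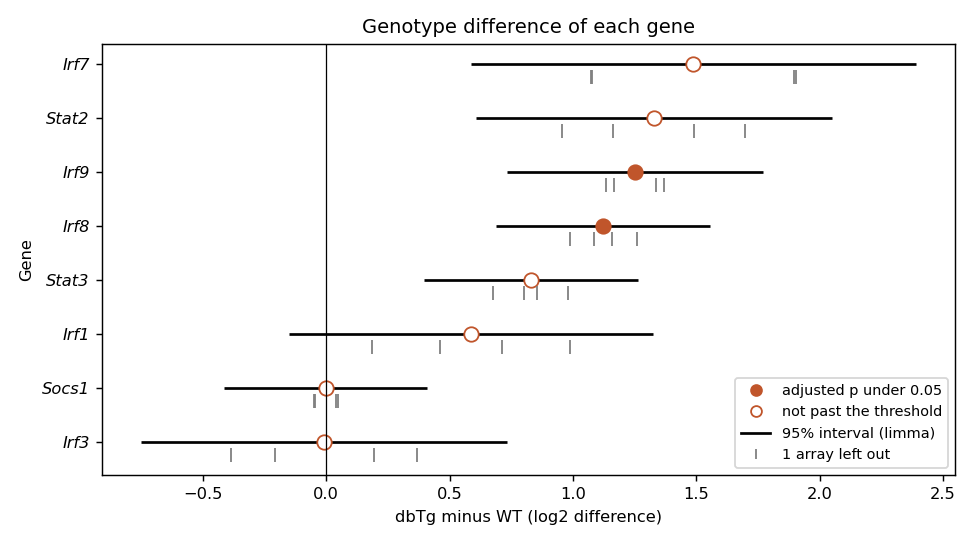
Difference between dbTg and WT (log2) for each gene with its 95% interval from limma; filled points passed an adjusted p of 0.05, open points did not, and grey ticks are the differences with 1 array left out. Irf8 and Irf9 are filled, the intervals of Irf7, Stat2 and Stat3 lie above 0, and those of Irf1, Irf3 and Socs1 include 0.

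Several IRFs are known from leukocytes, so markers of cell types were read as well, in lists also chosen with earlier results of these data known. The macrophage and general leukocyte lists were the only ones of these with called genes. Of 14 macrophage markers 8 were called higher, where 2.01% of all tested genes were. Among the 8, C1qc passed the filter only through its dbTg arrays. The summed linear level of the 14 markers was 125 to 144 in WT and 501 to 611 in dbTg. Lyz2, a lysozyme gene and the brightest of them, read 5.24 and 5.38 in WT and 7.93 and 7.33 in dbTg (difference 2.32, adjusted p = 0.00801). Of 6 markers of leukocytes in general 3 rose (26.5 to 32.6 in WT, 91.1 to 101 in dbTg), while the brightest, Lcp1, differed by 0.75 (adjusted p = 0.321). No T cell, B cell, NK cell, dendritic cell or neutrophil marker passed the threshold in limma. At an unadjusted p under 0.05, 1 T cell marker (Cd8b1, 0.62) and 1 dendritic cell marker (Itgax, 0.71) were higher. The brightest markers of the other lists, Cd209a (0.44), Cd79b (-0.32), Nkg7 (0.26), S100a9 (-0.056), Dcn (0.31) and Cdh5 (-0.85), had adjusted p-values from 0.0929 to 0.945. The T cell genes Cd3d, Cd3e and Cd8a, the B cell genes Cd79a, Ms4a1 and Cd22 and 5 of 6 NK cell and 7 of 8 neutrophil markers lay under the filter. Summed T cell markers reached 23.4 to 25.8 in WT and 27.0 to 27.2 in dbTg, B cell markers 13.6 to 14.3 and 13.0 to 13.1, NK cell markers 13.0 to 17.9 and 12.3 to 13.1, dendritic cell markers 23.1 to 27.9 and 27.5 to 32.1, and neutrophil markers 18.5 to 19.7 and 16.5 to 18.6. Endothelial markers read 278 to 283 in WT and 155 to 197 in dbTg, and fibroblast markers 771 to 882 and 1126 to 1221, with no call in either list and 3 endothelial markers lower and 4 fibroblast markers higher at an unadjusted p under 0.05. The part of these cells in the differences of the IRF and STAT genes was not tested. In whole muscle, more cells of a type and more RNA per cell cannot be told apart.

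The other genes of the pathway were followed in 10 lists, which were also chosen with earlier results of these data known. Of 108 tested genes, counted once each, 10 were called higher (9.26%) and 0 lower in limma, against 2.01% and 0.203% of all tested genes. At an unadjusted p under 0.05, 50 were higher (46.3%) and 5 lower, against 14% and 4.64% of all tested genes. Without either dbTg array none of the pathway genes was called, and few were over all tested genes. Without either WT array, calls were more numerous in the pathway lists and over all tested genes alike. Of the 10 genes, Irgm1, Il4ra and Fgl2 were not called after median centring or quantile normalization, and Il4ra and Fgl2 not without a filter either. The median difference over all tested genes was 0.089.

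No ligand gene was called. The 7 tested ligand genes were the interferon genes Ifna4, Ifng, Ifnl2 and Ifnl3, the interleukin-6 family genes Lif and Osm, and Il10. None of the 7 passed the threshold in limma (list median -0.20, which was 0.032 without dbTg replicate 1, and -0.44 without dbTg replicate 2 and -0.45 after median centring). An unadjusted p under 0.05 was reached by Ifnl3 at 0.69 (adjusted p = 0.182) and Ifng at -0.90 (adjusted p = 0.234). Ifng, which encodes interferon gamma, read 2.61 and 1.54 in WT and 1.007 and 1.33 in dbTg. Both dbTg values of Ifng lay under the filter, and the gene entered the test only through its WT arrays. A difference was thus built into its being tested, and its p-value is given as a description. Its WT arrays differed by more than the WT female did from either dbTg array. Ifnb1, which encodes interferon beta, and Il6 lay under the filter level on every array.

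Of 10 tested receptor genes none was called in limma. At an unadjusted p under 0.05, 4 of them were higher and 1 was lower (median 0.59, and 0.34 after median centring). Lifr, the receptor of leukemia inhibitory factor, differed by -0.65 (adjusted p = 0.107) and Il10rb, a subunit shared by interleukin-10 and interferon lambda receptors, by 0.93 (adjusted p = 0.124). None of the Janus kinase genes Jak1, Jak2 and Tyk2 was called, and none passed an unadjusted p under 0.05 (median -0.032). That median was 0.10 without WT replicate 1 or without dbTg replicate 2, -0.16 without either of the other arrays and -0.28 after median centring. The smallest p-values were those of Tyk2 at 0.43 (adjusted p = 0.471) and Jak2 at -0.27 (adjusted p = 0.621). Of 12 kinases and adaptors upstream of IRF3, IRF5 and IRF7 (median 0.43, which was 0.21 without WT replicate 2, 0.20 without dbTg replicate 2 and 0.18 after median centring), 1 rose: Unc93b1, which carries nucleic acid-sensing Toll-like receptors to endosomes. It read 2.42 and 2.26 in WT and 4.05 and 4.06 in dbTg (difference 1.72, SE 0.21, adjusted p = 0.0183). Another 4 of the 12 were higher at an unadjusted p under 0.05 only, among them Myd88, the adaptor of most Toll-like receptors, at 0.72 (adjusted p = 0.131).

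Other family members gave no calls. Of 4 tested IRF2 and IRF2-binding genes none passed even an unadjusted p under 0.05 (median -0.070). That median was -0.49 without WT replicate 1, 0.47 without WT replicate 2, -0.22 without dbTg replicate 1, 0.048 without dbTg replicate 2 and -0.32 after median centring. The smallest p-values were those of Irf2bp1 at 0.28 (adjusted p = 0.633) and Irf2bp2 at -0.15 (adjusted p = 0.891). The paralogous STAT5 genes differed in opposite directions, with Stat5b at -0.88 (adjusted p = 0.111) and Stat5a at 0.76 (adjusted p = 0.115), neither past the threshold. Stat5b read 6.64 and 6.05 in WT and 5.58 and 5.36 in dbTg, and Stat5a 1.91 and 1.96 in WT and 2.76 and 2.62 in dbTg. Their groups did not overlap, and array values of such closely related genes are uncertain.

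Among 16 tested inhibitors besides Socs1 none was called. At an unadjusted p under 0.05, 6 were higher and 2 were lower (median 0.26, and 0.011 after median centring). Usp18, the protease that blocks the type I interferon receptor and is itself induced by interferon, read 1.81 and 1.55 in WT and 3.04 and 4.40 in dbTg (difference 2.04, adjusted p = 0.0692). Ptpn11, a tyrosine phosphatase, differed by -0.82 (adjusted p = 0.0790).

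Target genes of ISGF3 and of interferon gamma and IRF1 were the lists with the highest medians. Of 19 tested ISGF3 targets 2 were called higher, 17 were not called and 14 were higher at an unadjusted p under 0.05 (median 1.03). The called genes were Zbp1, a sensor of Z-form nucleic acids (difference 1.60, SE 0.21, adjusted p = 0.0220), and Trim21, an intracellular antibody receptor (1.47, SE 0.20, adjusted p = 0.0245). Trim21 had a WT mean of 1.40, under the filter, and entered the test only through its dbTg arrays. Of 19 tested targets of interferon gamma and IRF1, 5 rose, 14 were not called and 13 were higher at an unadjusted p under 0.05 (median 1.05). The called genes were B2m, the light chain of the class I molecules that present antigen (1.65), the chemokine gene Cxcl9 (2.59), and the interferon-inducible GTPase genes Iigp1 (3.46), Igtp (2.26) and Irgm1 (1.34). Macrophage markers were higher in the same arrays, with a median difference of 1.74.

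Of 16 listed STAT3 targets 2 rose, 14 were not called and 6 were higher at an unadjusted p under 0.05. Their list median of 0.26 became 0.41 without WT replicate 1, 0.57 without WT replicate 2, 0.44 without dbTg replicate 1 and 0.012 after median centring. Il4ra, the interleukin-4 receptor, rose by 1.21 (adjusted p = 0.0437), and Fgl2, a secreted fibrinogen-like protein, by 1.58 (adjusted p = 0.0447). Neither was called after either scaling, without a filter or without either dbTg array. Socs3, the STAT3-induced inhibitor that also counts among the inhibitors above, read 1.33 and 1.27 in WT and 1.89 and 1.96 in dbTg (difference 0.62, adjusted p = 0.123). The ubiquitin ligase genes Fbxo32 and Trim63, known from muscle atrophy, differed by -0.82 (adjusted p = 0.291) and -0.27 (adjusted p = 0.846), with overlapping groups.

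**Figure D4:**
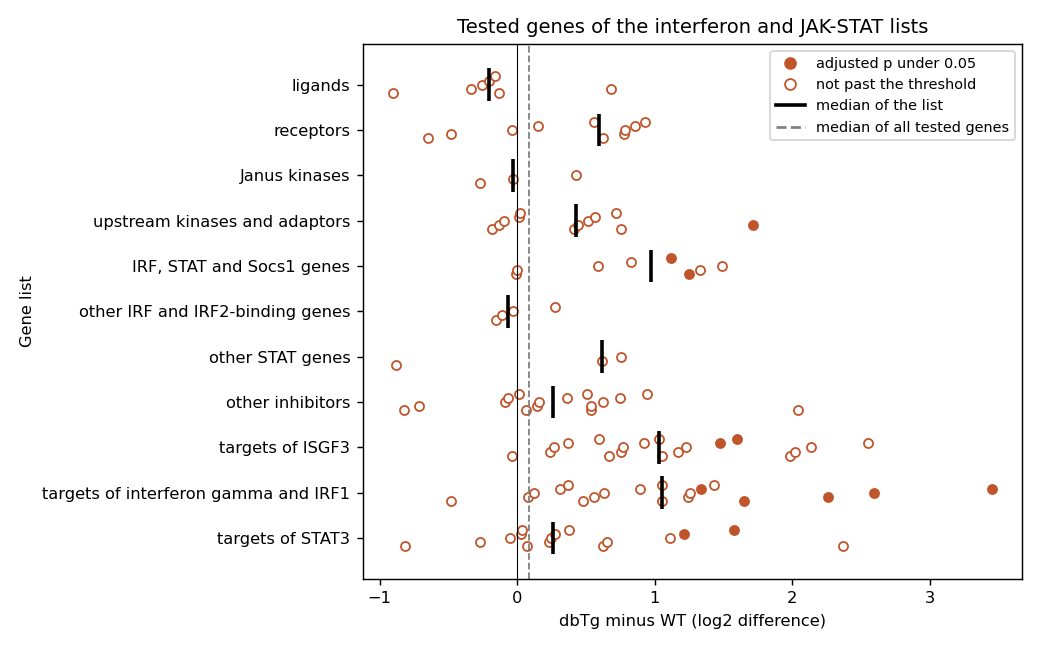
Difference between dbTg and WT (log2) of each tested gene in 11 lists, with filled points past an adjusted p of 0.05, a black bar at the median of each list and a dashed line at the median of all tested genes, 0.089. The medians of the ISGF3 list (1.03) and of the interferon gamma and IRF1 list (1.05) lie furthest to the right, and the ligands' median (-0.20) furthest to the left.

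Most ISGF3 targets were higher on 1 of the dbTg arrays than on the other. On the female dbTg array 14 of 19 targets read higher than on the male one, with a median gap of 0.50, against 6387 of 13308 tested genes with a median gap of -0.013. In WT the same comparison gave 10 of 19 with a median gap of 0.048. Stat2 was higher on the female array in dbTg (gap 0.74) and lower on it in WT (-0.33). Irf7 was higher on the female array in both groups, by 0.83 in dbTg and 0.82 in WT. The dbTg gaps of Irf3 (0.40) and Irf1 (-0.25) were smaller than their WT gaps (0.76 and -0.80). Those of Irf8 (-0.074), Irf9 (-0.17), Stat3 (0.054) and Socs1 (-0.086) were small. The 14 macrophage markers had a median gap of -0.058. Sex and replicate cannot be told apart here, as each is 1 mouse per genotype, and the gap has no test.

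**Figure D5:**
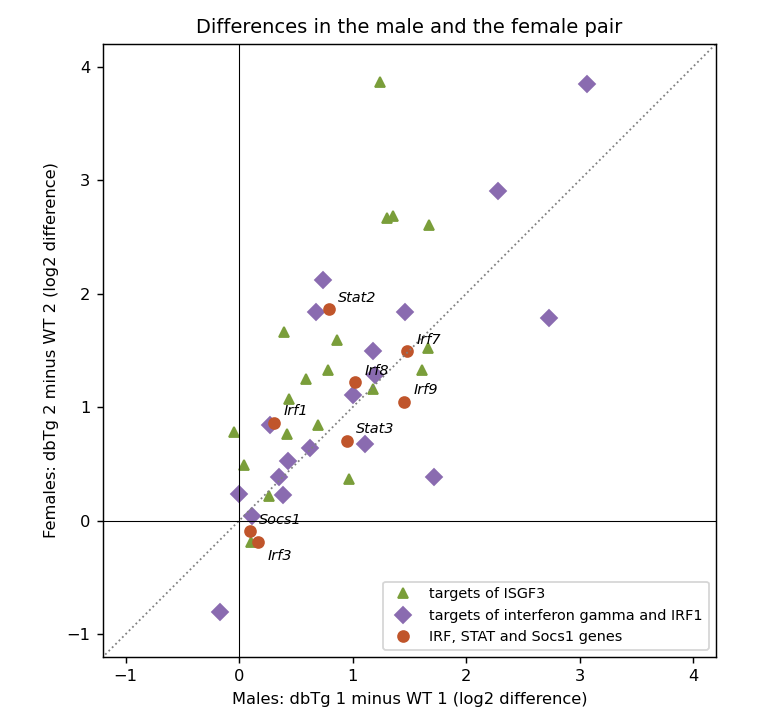
Difference between dbTg and WT (log2) in the male pair (x axis) against the female pair (y axis) for the IRF, STAT and Socs1 genes, the tested ISGF3 targets and the tested interferon gamma and IRF1 targets; the dotted line marks equal differences. Stat2 lies above the line at 0.79 and 1.86, Irf7 on it at 1.48 and 1.49, and the median ISGF3 target at 0.78 in males and 1.25 in females.

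Genes with the pattern closest to the 3 largest differences were found by the Euclidean distance between mean-centred log2 values over the 4 arrays. Closest to Stat2 were Ifih1 (distance 0.038), the sensor of long double-stranded RNA, Lum (0.043), a fibroblast matrix protein, and Sik1 (0.15), a salt-inducible kinase. Closest to Irf7 were Ddx58 (0.19), which encodes the RNA sensor RIG-I, Ms4a4c (0.26) and Gldn (0.31). Closest to Irf9 were Xirp1 (0.047), a repair protein of striated muscle, Eef1a1 (0.11), a translation elongation factor, and Eif1a (0.11), a translation initiation factor. With 4 arrays many genes lie close to any pattern, and the distances carry no test.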

How the data were processed

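Total RNA of 4 quadriceps was measured on Affymetrix arrays. The deposited values are log2 RMA expression values made by the authors with Affymetrix Expression Console, per the labels. RMA corrects background, normalizes arrays by quantiles and summarises probes, which compresses differences at low levels. No software version or annotation build was given in the sources used here. Of 41345 rows, 23521 had exactly 1 gene symbol in the platform annotation, and 0 symbols changed when matched by Entrez identifier to RefSeq (GRCm38.p6). Groups followed the sample titles. The groups were fitted in R 4.3.3 by limma 3.58.1 (lmFit, then eBayes with its trend option; the arrays leave 2 residual degrees of freedom), two-sided, with an adjusted p of 0.05 as threshold. The procedure was tested on simulated data. The named genes are the 9 chosen genes; from each list, called genes, otherwise the 2 with the smallest p; the brightest marker per cell type; Ilf2; and the 3 nearest patterns of 3 genes. Other genes were named after their values were seen. The genes and lists were chosen with earlier results of these data known. Alternatives were 1 array left out, a replicate block, other scaling, filters, rows of a gene, variance models and thresholds, and promoter windows of 250 bases.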

Additional observations from a re-analysis of the deposited data

Results flagged for a closer look

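Irf3 and Socs1 had differences of opposite sign in the male and the female pair of mice. For Irf3 the difference between dbTg and WT was 0.17 in males and -0.19 in females. For Socs1 it was 0.091 in males and -0.094 in females. Each value rests on 1 array per genotype, and the difference between the pairs was not tested.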

How the results depend on the processing

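The 8 genes had 2 calls with all settings as reported, and 0 to 4 when 1 array was left out. The count was 0 after median centring, 0 after quantile normalization and 0 without an intensity filter, 1 with the filter at the 60th percentile (Irf8 is not tested there), 1 with the mean of a gene's rows, and 4 at a threshold of 0.10. With the replicate number as a replicate block it was 0 (adjusted p = 0.0854 for Irf8 and 0.0992 for Irf9). The replicate numbers mark the sex and no shared animal or batch, and the deviations of same-numbered arrays correlated at 0.049 across genes, so the block is not the reported fit. Over all tested genes the counts higher and lower were 4 to 610 and 0 to 156 with 1 array left out, 63 and 2 with the block, 124 and 65 after median centring, 120 and 7 after quantile normalization, 165 and 7 without a filter, and 646 and 126 at the threshold of 0.10. With 1 array left out, the low ends of these ranges came without a dbTg array and the high ends without a WT array. The lower count was 44 with the 60th percentile filter and 14 without the trend. In the pathway lists the higher count was 0 to 23 with 1 array left out, 3 with the block (B2m, Cxcl9 and Iigp1) and 25 at 0.10, and the lower count 0 to 2 and, at 0.10, 1 (Ptpn11). Median centring moved the median difference of all tested genes from 0.089 to -0.16. With 1 array left out, Irf3 ranged from -0.39 to 0.37 and Socs1 from -0.051 to 0.048. The sign of Irf3 turned without WT replicate 2 (0.37) and without dbTg replicate 1 (0.19), and that of Socs1 without WT replicate 2 (0.048), without dbTg replicate 2 (0.041) and after quantile normalization (0.034). The differences of Irf1, Irf7, Irf8, Irf9, Stat2 and Stat3 stayed positive under each alternative run on them. With 1 array left, its group was assumed to vary like the other. The cause of these changes was not tested. Irf8 and Socs1 lie close to the intensity filter. In 250-base windows the motif counts of the 9 genes stood, and ISRE core matches fell to 7 of 17 ISGF3 targets.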
